A study of Mus musculus with 8 samples.

Results

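The comparison sets 2 groups of knockout precursors of regulatory T cells (Treg) against complete Treg of the mouse thymus. It rests on 6 arrays: 4 precursor arrays, 2 labelled Nr4a-TKO preTreg and 2 labelled Foxp3-KO preTreg, and 2 arrays labelled WT Treg. The series holds 8 arrays, and the other two are conventional CD4 T cells (WT Tconv), given here only as a reference level. A gene is called shared where the mean of both precursor groups differed from WT Treg at an adjusted p under 0.05 and all 4 precursor arrays lay on the same side of both WT Treg arrays. Of 13497 genes bright enough to test, 1054 were shared and higher in the precursors and 750 were shared and lower. The test is on the mean, so a shared gene need not pass it in each group alone. Set against WT Treg on its own at the same threshold, Foxp3-KO called 852 genes and Nr4a-TKO 4757.

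All cells were freshly isolated CD4 single-positive thymocytes, lysed without culture, with 2 biological replicates a group. Nr4a-TKO preTreg came from mice with the genotype Nr4a-TKO, which the labels do not spell out further, and were sorted for high CD25, high GITR and high Nr4a3. Foxp3-KO preTreg came from mice with the genotype Foxp3-KO and were sorted for high CD25 and a positive Foxp3 reporter. WT Treg were wild-type and sorted for Foxp3 without a CD25 gate, and WT Tconv were wild-type and low in CD25. No wild-type precursor was measured, so genotype, gate and the lack of a finished Treg programme change together and cannot be told apart. Age, strain, the parts of the genes removed and any Cre driver are not stated in the sources used here, and neither is pooling of animals.

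Treg are CD4 T cells that restrain immune responses, and they arise in the thymus from CD4 thymocytes that receive a strong signal through the T cell receptor. Such signals induce the Nr4a nuclear receptors, which can turn on the gene for Foxp3, and interleukin 2 acting through CD25 and STAT5 then completes Foxp3 expression. Foxp3 is the transcription factor that maintains the Treg programme, and cells that switch on the locus without a working protein are used to see which parts of that programme need it. A thymocyte that completes this path stops dividing, gains the receptors for leaving the thymus and moves out into the blood.

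Every value below is a log2 signal of the brightest probe of the gene after subtraction of the 75th percentile of its array, so 0 is the level of that percentile and probes of different genes are not compared. A difference is the mean of both precursor groups minus WT Treg, as log2 ± SE, with an adjusted p from limma after Benjamini-Hochberg over the 13497 genes. In tissue-derived populations fewer cells of a type and less RNA per cell give the same change in signal and cannot be told apart. Of all tested genes, 10.1% passed the test as higher and 7.5% as lower, and 13.4% were shared, 7.81% higher and 5.56% lower. All 4 precursor arrays lay above both WT Treg arrays for 15.3% of genes and below them for 13.1%, whether or not the gene was called. The exact permutation test of 4 arrays against 2 has 15 splits and a smallest p of 0.0667, so for a single gene it cannot reach 0.05.

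Replicates correlated across genes, which are not independent replicates, at r = 0.990 in Nr4a-TKO, 0.976 in Foxp3-KO and 0.990 in WT Treg, with a pooled SD of 0.29, 0.47 and 0.31 log2 units. Local background was 7.96 to 9.20 times weaker than the 75th percentile of signal. The 8 arrays shared 1 slide: row 1 carried Nr4a-TKO and WT Tconv, and row 2 carried WT Treg and Foxp3-KO. The row cannot be told apart from the group for Nr4a-TKO. Of 129 named genes fitted within row 2, 121 no longer passed the test. In that row, where Foxp3-KO was set against WT Treg in a fit of those 4 arrays alone, with 2 residual degrees of freedom, Foxp3, Flicr, Dgat2 and Ccr10 were among the named shared genes that passed the test.

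Many shared differences were small in the group that changed less. Of the 1054 higher genes, 494 were at least 1.5-fold higher in both precursor groups, 269 at least 2-fold and 66 at least 4-fold. Of the 750 lower genes, 198 were at least 1.5-fold lower in both, 86 at least 2-fold and 17 at least 4-fold. By the mean of both groups, 3.02% of all tested genes were shared and at least 2-fold higher and 1.42% at least 2-fold lower. The smaller difference was under 1.2-fold for 214 higher and 222 lower genes. The median difference of the higher genes was 0.79, with 0.93 in Nr4a-TKO and 0.59 in Foxp3-KO, and that of the lower genes was -0.59, with -0.68 and -0.43, while the median of all tested genes was -0.0018.

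The counts depended on single arrays and on how the spread was estimated. Without WT Treg replicate 2 the counts were 349 higher and 223 lower, and without WT Treg replicate 1 they were 499 and 269. Without Foxp3-KO replicate 2 they were 1846 and 1464. Without either WT Tconv array they were 568 and 369, and without Nr4a-TKO replicate 1 they were 689 and 500. With the 4 precursor arrays fitted as 1 group, so that the difference between Nr4a-TKO and Foxp3-KO counts as spread, 3 genes were higher and 2 lower. Of the 131 shared genes named by rule, 45 kept their call without each array in turn.

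The targeted genes and the genes of the sort gates were read first. Foxp3, the transcription factor that defines Treg, had a log2 signal of 3.80 and 3.25 in Nr4a-TKO, 1.97 and 1.74 in Foxp3-KO, and 5.0 and 4.72 in WT Treg, with -3.40 and -3.79 in WT Tconv. All 4 precursor arrays lay below WT Treg and far above WT Tconv, and the Foxp3-KO arrays were lower than those of Nr4a-TKO. WT Treg were sorted for Foxp3 and Foxp3-KO is targeted in it, so this order cannot be told apart from gate and genotype. The adjusted p values of Foxp3 are therefore a description. The difference from WT Treg was -2.17 ± 0.20, adjusted p = 0.00371, with -1.34 in Nr4a-TKO (adjusted p = 0.0114) and -3.01 in Foxp3-KO (adjusted p = 0.00718), and the call held without each array in turn. Foxp3-KO against WT Treg called 6.31% of all tested genes and Nr4a-TKO against WT Treg 35.2%. With the 4 precursor arrays as 1 group the adjusted p of Foxp3 was 0.272. Tnfrsf18, the gene of GITR, a costimulatory TNF receptor and one of the Nr4a-TKO gate markers, was at 6.74 and 6.50 in Nr4a-TKO, 6.57 and 6.39 in Foxp3-KO, and 7.17 and 7.12 in WT Treg. It was lower in both groups (-0.59 ± 0.10, adjusted p = 0.0156), and without WT Treg replicate 1 its adjusted p was 0.0895.

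The other gate and target genes were not shared. Il2ra, the gene of CD25, was at 6.20 and 5.69 in Nr4a-TKO, 4.24 and 3.73 in Foxp3-KO, and 5.89 and 5.80 in WT Treg, a difference of 0.10 in Nr4a-TKO (adjusted p = 0.755) and -1.86 in Foxp3-KO (adjusted p = 0.0172). Nr4a1 was at 7.73 and 7.96 in Nr4a-TKO, 7.17 and 7.60 in Foxp3-KO, and 7.28 and 7.62 in WT Treg. Nr4a3 was at -0.42 and -0.12 in Nr4a-TKO, -0.88 and -0.33 in Foxp3-KO, and -0.36 and 1.01 in WT Treg. Nr4a2 was at 3.72 and 3.87 in Nr4a-TKO, 1.86 and 1.26 in Foxp3-KO, and 1.60 and 1.79 in WT Treg, so it was highest on the arrays labelled Nr4a-TKO, and lay at -1.51 and -1.56 in WT Tconv. Nr4a1 (0.17 ± 0.16, adjusted p = 0.488) and Nr4a3 (-0.77 ± 0.39, adjusted p = 0.221) did not pass the test for the mean of both groups. The removed parts of these genes are not given, so a probe may lie outside them and none of these values checks a genotype.

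The genes that led the lower side held several known from the Treg programme. Flicr, a long non-coding RNA next to Foxp3, was at -1.05 and -2.49 in Nr4a-TKO, -1.81 and -2.07 in Foxp3-KO, and 0.55 and 0.71 in WT Treg. Lrrc32, which presents latent TGF-beta on the cell surface, was at 5.03 and 3.74 in Nr4a-TKO, 4.48 and 4.24 in Foxp3-KO, and 6.40 and 6.31 in WT Treg. Gpr83, a G protein-coupled receptor typical of Treg, was at -2.09 and -2.21 in Nr4a-TKO, -2.36 and -2.15 in Foxp3-KO, and -0.55 and 0.13 in WT Treg. In all of these the 4 precursor arrays lay below both WT Treg arrays, as the rule for shared genes requires. Gpr83 on the precursor arrays lay below WT Tconv as well. In WT Tconv Flicr was not well above background while Lrrc32 lay at -3.15 and -4.11 and Gpr83 at -1.26 and -1.26. The differences were -2.49 ± 0.41, adjusted p = 0.0158 for Flicr, -1.98 ± 0.43, adjusted p = 0.0321 for Lrrc32 and -1.99 ± 0.20, adjusted p = 0.004 for Gpr83. The call of Gpr83 held without each array in turn, whereas Flicr reached an adjusted p of 0.0998 and Lrrc32 one of 0.147 without WT Treg replicate 2. Flicr kept its call in 6 of the 8 fits without 1 array and Lrrc32 in 3.

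**Figure D1:**
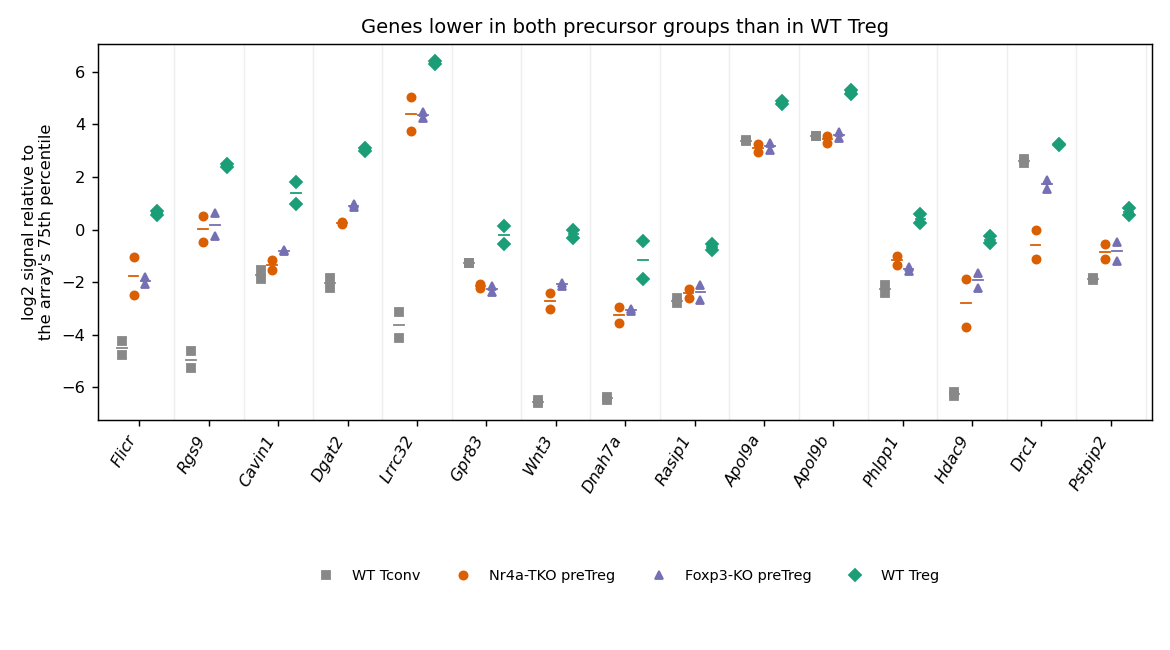
Log2 signal relative to the 75th percentile of each array (y axis) for the 15 leading lower genes (x axis), with 1 point per array, 2 per group, and a short line at the group mean. As the rule for shared genes requires, the Nr4a-TKO and Foxp3-KO points lie below both WT Treg points for each of the 15 genes. The mean difference runs from -2.66 for Drc1 to -1.51 for Pstpip2.

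Enzymes and signalling genes made up the rest of the leading lower genes, which were ranked by the smaller of the 2 group differences among probes above background on all 6 arrays. Dgat2, the enzyme of the last step of triglyceride synthesis, was at 0.30 and 0.22 in Nr4a-TKO, 0.96 and 0.85 in Foxp3-KO, and 3.11 and 2.99 in WT Treg, a difference of -2.47 ± 0.11, adjusted p = 0.00103. Its precursor arrays stood clear of WT Treg and its call held without each array in turn. Rgs9, which speeds the shut-off of G protein signals, was at 0.50 and -0.47 in Nr4a-TKO, 0.61 and -0.24 in Foxp3-KO, and 2.51 and 2.38 in WT Treg (-2.34 ± 0.38, adjusted p = 0.0152). Phlpp1, a phosphatase that acts on AKT, was at -1.01 and -1.34 in Nr4a-TKO, -1.41 and -1.58 in Foxp3-KO, and 0.23 and 0.59 in WT Treg (-1.75 ± 0.16, adjusted p = 0.00346). Cavin1, a coat protein of caveolae, was at -1.16 and -1.53 in Nr4a-TKO, -0.82 and -0.78 in Foxp3-KO, and 1.82 and 0.97 in WT Treg (-2.47 ± 0.26, adjusted p = 0.00498). The ligand Wnt3 (-2.24), the Ras-binding protein Rasip1 (-1.75) and the apolipoprotein L genes Apol9a (-1.71) and Apol9b (-1.71) also kept their calls without each array in turn. Apol9a and Apol9b are near-identical copies, so their probes may share signal and count as 1 observation.

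The remaining leading lower genes were less stable. Hdac9, a class IIa histone deacetylase, was at -1.89 and -3.71 in Nr4a-TKO, -1.65 and -2.21 in Foxp3-KO, and -0.26 and -0.50 in WT Treg, with an adjusted p of 0.0494 that rose to 0.194 without WT Treg replicate 1. Dnah7a (-2.01), Pstpip2 (-1.51) and Drc1 (-2.66) each lost the call without WT Treg replicate 2, and Dnah7a also in most other fits without 1 array. Over those fits the Dnah7a difference ran from -2.74 to -1.28. Drc1 was the uneven one, at -0.02 and -1.13 in Nr4a-TKO, 1.90 and 1.55 in Foxp3-KO, and 3.25 and 3.23 in WT Treg. A further set was not well above background on the precursor arrays, so that only a bound on the fold can be given: the mean of the bright group over, on each dim array, the lowest signal that counted as well above background or the probe's own where that was higher. By it WT Treg was at least 4.51-fold higher for Apobec2, a member of the cytidine deaminase family (adjusted p = 0.00251). The bound was 3.22-fold for the calcium release channel Ryr2 (adjusted p = 0.00829), 3.75-fold for Zfp618 (adjusted p = 0.0429) and 3.08-fold for Plekhh1 (adjusted p = 0.00789). That of Zfp618 is uncertain, as its 2 WT Treg arrays lay far apart, at -3.26 and -1.26. These 4 genes were also not well above background in WT Tconv, so they passed the brightness filter only through WT Treg, where they are high. Their adjusted p values come from genes chosen by that brightness and are given as a description. With 1 array left out at a time, the Apobec2 difference ran from -4.33 to -3.71. Of all lower genes, 30 were not well above background in both precursor groups.

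Among 33 transcription factors known from Treg, 5 fell and 5 rose, beside the 5.56% and 7.81% over all tested genes, and the list median was 0.17. The 5 lower were Foxp3, the Ikaros family members Ikzf4 (Eos) and Ikzf2 (Helios), the zinc finger gene Plagl1 and Foxo1, a forkhead factor of quiescence. WT Treg were sorted for Foxp3, so its place among them is a description. Ikzf4 was at 3.23 and 2.73 in Nr4a-TKO, 5.21 and 5.33 in Foxp3-KO, and 5.99 and 5.90 in WT Treg, and its difference (-1.82 ± 0.15, adjusted p = 0.00261) came mostly from Nr4a-TKO. Ikzf2 was at 3.88 and 3.48 in Nr4a-TKO, 4.66 and 4.74 in Foxp3-KO, and 5.04 and 4.94 in WT Treg (-0.80 ± 0.13, adjusted p = 0.0162) and had the same order of groups. In Foxp3-KO alone Ikzf2 differed by -0.29 (adjusted p = 0.307). Plagl1, at 2.94 and 3.43 in Nr4a-TKO, 2.11 and 1.51 in Foxp3-KO, and 3.88 and 4.46 in WT Treg, had the reverse order and was lowest in Foxp3-KO (-1.68 ± 0.26, adjusted p = 0.0141). By the rule for shared genes the precursors stood below WT Treg in each of these genes. They stood above the WT Tconv level of 1.87 and 1.80 for Ikzf4, -0.25 and -0.46 for Ikzf2 and -2.06 and -1.83 for Plagl1. Without WT Treg replicate 2 the list held 3 lower genes and without Foxp3-KO replicate 2 it held 7.

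The transcription factors that rose included regulators of other lymphocyte lineages. Zbtb16 (PLZF), which directs innate-like lymphocyte development, was at -1.41 and -1.17 in Nr4a-TKO, 0.25 and 0.56 in Foxp3-KO, and -2.95 and -3.59 in WT Treg (2.83 ± 0.20, adjusted p = 0.00196), and WT Tconv lay higher still at 2.37 and 2.27. Id2, an inhibitor of E proteins, was at 5.99 and 5.99 in Nr4a-TKO, 4.33 and 2.74 in Foxp3-KO, and 2.35 and 2.52 in WT Treg (2.33 ± 0.42, adjusted p = 0.0202). Nr4a-TKO thus stood farther from WT Treg in Id2, and Foxp3-KO in Zbtb16. Runx3 (1.08) and Ikzf1 (Ikaros, 0.46) were higher as well. Zbtb16 kept its call without each array in turn, and Id2 did so in 2 of the 8 fits, with a highest adjusted p of 0.107 without WT Treg replicate 1.

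Of 41 Treg surface and effector genes, 7 fell and 0 rose, beside 5.56% and 7.81% of all tested genes, and the list median was -0.23. That median covered opposite signs: it was 0.37 in Nr4a-TKO and -1.08 in Foxp3-KO, and 34 of the 41 were not shared, Ctla4 among them (1.5 in Nr4a-TKO and -1.65 in Foxp3-KO). Besides Gpr83, Lrrc32 and Tnfrsf18, the lower genes were Ecm1, Tnfrsf4, Ccr6 and Swap70. Ecm1, a secreted matrix protein, was at 4.95 and 4.75 in Nr4a-TKO, 5.92 and 5.71 in Foxp3-KO, and 6.18 and 6.42 in WT Treg (-0.97 ± 0.11, adjusted p = 0.00575). Tnfrsf4, the gene of OX40, was at 7.72 and 7.49 in Nr4a-TKO, 6.98 and 6.74 in Foxp3-KO, and 7.85 and 7.87 in WT Treg (-0.63 ± 0.10, adjusted p = 0.0156). Ccr6, the receptor for CCL20, was at 4.91 and 4.49 in Nr4a-TKO, 4.19 and 3.17 in Foxp3-KO, and 5.72 and 5.81 in WT Treg (-1.58 ± 0.29, adjusted p = 0.022), with -2.04 and -1.89 in WT Tconv. The precursor arrays of Ccr6 and Tnfrsf4 stood between WT Treg and WT Tconv, where Tnfrsf4 lay at 4.65 and 4.68. The list had 2 lower genes without WT Treg replicate 1, without Foxp3-KO replicate 1 it had 10, and without both Nr4a-TKO replicate 1 and Foxp3-KO replicate 1 it had 14.

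Genes that hold and read TGF-beta, a cytokine that supports Treg development, were more often lower than higher. Of 17 tested, 6 fell and 1 rose, beside 5.56% and 7.81% of all tested genes, with a list median of -0.17. Smad7, an inhibitor induced by the pathway itself, was at 1.76 and 1.74 in Nr4a-TKO, 2.20 and 2.21 in Foxp3-KO, and 2.53 and 2.64 in WT Treg (-0.60 ± 0.07, adjusted p = 0.00522). Tgif1, a SMAD co-repressor, was at 3.70 and 3.52 in Nr4a-TKO, 3.58 and 3.62 in Foxp3-KO, and 4.12 and 4.30 in WT Treg (-0.60 ± 0.08, adjusted p = 0.0105), against 0.75 and 0.72 in WT Tconv. Tgfbr1, the type I receptor, was at 2.96 and 2.61 in Nr4a-TKO, 2.39 and 2.45 in Foxp3-KO, and 3.30 and 3.15 in WT Treg (-0.62 ± 0.11, adjusted p = 0.0213). All 4 precursor arrays lay below both WT Treg arrays in each, as the rule for shared genes requires. The SMAD co-repressors Skil (-0.43) and Ski (-0.38) and Lrrc32 were the others, and the ligand Tgfb3 rose (1.27 ± 0.23, adjusted p = 0.0202). Of Smad7, Tgif1, Tgfbr1 and Skil, Smad7 kept its call without each array in turn, and without WT Treg replicate 2 the list held 1 lower gene.

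In the interleukin 2 and STAT5 list, 3 of 24 genes fell and 1 rose, beside 5.56% and 7.81% of all tested genes, with a median of -0.12. Both STAT5 genes, which carry the interleukin 2 signal to the Foxp3 gene, were lower. Stat5a was at 3.46 and 3.62 in Nr4a-TKO, 4.0 and 4.13 in Foxp3-KO, and 4.54 and 4.36 in WT Treg (-0.65 ± 0.09, adjusted p = 0.0106). Stat5b was at 4.18 and 4.30 in Nr4a-TKO, 4.92 and 5.17 in Foxp3-KO, and 5.25 and 5.19 in WT Treg (-0.57 ± 0.10, adjusted p = 0.0177). Both differences were mainly those of Nr4a-TKO, where Stat5a was -0.91 and Stat5b -0.98. In Foxp3-KO alone Stat5a was -0.38 (adjusted p = 0.0979) and Stat5b -0.17 (adjusted p = 0.397). The survival gene Mcl1 was lower (-0.40 ± 0.09, adjusted p = 0.0367) and the kinase Pim2 higher (0.70 ± 0.16, adjusted p = 0.035). Mcl1 differed by -0.14 in Foxp3-KO alone (adjusted p = 0.475). The adjusted p was 0.0628 for Stat5a and 0.0996 for Stat5b when WT Treg replicate 1 was left out, and the lower count of the list ran from 0 (without WT Treg replicate 1) to 6 (without Foxp3-KO replicate 2). Of 32 TNF receptor and NF-kB genes, 5 fell and 1 rose, with a median of -0.12. Tnfrsf25 (death receptor 3) was at 5.91 and 5.93 in Nr4a-TKO, 5.89 and 5.66 in Foxp3-KO, and 6.59 and 6.61 in WT Treg (-0.75 ± 0.08, adjusted p = 0.00528), and Tnip1, a brake on NF-kB, was lower too (-0.50 ± 0.06, adjusted p = 0.00591). Malt1, the protease that links the T cell receptor to NF-kB, was the 1 that rose (0.96 ± 0.09, adjusted p = 0.00385), at 4.16 and 3.93 in Nr4a-TKO, 2.56 and 2.47 in Foxp3-KO, and 2.28 and 2.36 in WT Treg. Its difference in Foxp3-KO alone was 0.20 (adjusted p = 0.313). The lower count of this list ran from 2 (without WT Treg replicate 2) to 8 (without Foxp3-KO replicate 2).

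Promoters are shown for lower genes whose window of 300 bases, from 250 before to 50 after a RefSeq start site (GRCm38.p6), holds a motif bound by the Nr4a, forkhead or STAT families, to which the targeted genes and STAT5 belong. Of 14 named lower genes with such a match in a listed window, 5 are shown: Foxp3 and Tnfrsf18 as a target and a gate gene, both STAT5 genes, and Ltb because its 1 listed window holds 2 of the motifs. Tgif1, not shown, holds an Nr4a and a STAT match in different windows. They were picked after the matches were seen. The motifs searched on both strands were the Nr4a site AAAGGTCA, the forkhead site TGTTTAC and the STAT site TTCNNNGAA. Capitals mark the matches, and sequences run 5′ to 3′ on the strand of the gene. The window of Foxp3 is chrX:7580233-7580532, plus strand (the STAT match is in the window of 1 of its 2 listed starts), that of Tnfrsf18 chr4:156026072-156026371, plus, that of Stat5a chr11:100860234-100860533, plus, that of Stat5b chr11:100822521-100822820, minus, and that of Ltb, the gene of lymphotoxin beta, chr17:35194257-35194556, plus. Foxp3 and Tnfrsf18 hold a STAT match, Stat5a and Stat5b an Nr4a match in 1 of 2 listed starts each, and Ltb a forkhead and a STAT match.
Foxp3: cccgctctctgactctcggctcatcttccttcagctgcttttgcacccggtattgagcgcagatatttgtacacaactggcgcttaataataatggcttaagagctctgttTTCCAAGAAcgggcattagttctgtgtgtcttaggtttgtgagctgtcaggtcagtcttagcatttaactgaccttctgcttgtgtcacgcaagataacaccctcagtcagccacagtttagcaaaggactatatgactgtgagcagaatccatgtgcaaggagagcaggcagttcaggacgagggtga
Tnfrsf18: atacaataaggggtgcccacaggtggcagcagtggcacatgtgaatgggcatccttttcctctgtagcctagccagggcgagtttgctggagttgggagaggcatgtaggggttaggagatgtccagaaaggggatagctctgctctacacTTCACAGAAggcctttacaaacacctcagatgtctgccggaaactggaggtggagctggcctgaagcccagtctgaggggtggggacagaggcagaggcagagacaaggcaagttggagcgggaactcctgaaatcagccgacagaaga
Stat5a: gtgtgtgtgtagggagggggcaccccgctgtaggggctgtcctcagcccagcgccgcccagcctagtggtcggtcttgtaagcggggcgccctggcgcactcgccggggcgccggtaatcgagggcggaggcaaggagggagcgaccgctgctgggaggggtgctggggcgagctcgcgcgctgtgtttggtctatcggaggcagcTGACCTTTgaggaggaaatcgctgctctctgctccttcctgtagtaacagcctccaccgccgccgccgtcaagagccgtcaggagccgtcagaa
Stat5b: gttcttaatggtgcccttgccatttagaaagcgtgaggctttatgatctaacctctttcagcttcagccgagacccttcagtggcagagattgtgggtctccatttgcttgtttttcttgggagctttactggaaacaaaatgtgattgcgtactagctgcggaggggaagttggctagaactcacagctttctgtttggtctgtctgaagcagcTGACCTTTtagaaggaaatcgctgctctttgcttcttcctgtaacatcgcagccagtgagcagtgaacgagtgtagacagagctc
Ltb: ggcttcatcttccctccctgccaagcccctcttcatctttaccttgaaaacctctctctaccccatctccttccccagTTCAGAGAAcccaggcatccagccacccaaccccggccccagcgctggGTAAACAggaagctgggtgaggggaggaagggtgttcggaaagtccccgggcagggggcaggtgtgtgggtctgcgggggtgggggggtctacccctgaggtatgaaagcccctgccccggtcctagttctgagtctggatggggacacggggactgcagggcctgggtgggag

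In Stat5a the match begins 44 bases before the start and in Stat5b 35 bases before it, and on the gene strand both read TGACCTTT, the reverse complement of the motif. In Foxp3 the STAT match begins 139 bases before the start, in Tnfrsf18 99 bases, and in Ltb 172 bases, with the forkhead match 124 bases before. In the first listed start of each gene, the Nr4a motif was found in 0.717% of the 837 higher genes with a promoter, in 0.507% of the 592 lower genes and in 0.945% of all 10792 tested genes with one. The forkhead motif was in 2.15% of higher, 4.90% of lower and 2.65% of all promoters. The STAT motif was in 5.38%, 7.10% and 7.29%. These shares describe letters in a short window and show no binding. The matches shown for Foxp3, Stat5a and Stat5b lie in a later listed start and are not counted in the shares.

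Of genes of thymocyte maturation and exit, S1pr1, Klf2 and Il6ra were among those lower in both precursors with the smallest adjusted p. Of 26 tested, 9 fell and 0 rose, beside 5.56% and 7.81% of all tested genes, and the list median was -0.38. S1pr1, the sphingosine 1-phosphate receptor that draws mature thymocytes into the blood, was at 3.20 and 3.19 in Nr4a-TKO, 4.94 and 4.92 in Foxp3-KO, and 5.29 and 5.23 in WT Treg. Klf2, the transcription factor that turns on S1pr1, was at 4.90 and 4.91 in Nr4a-TKO, 5.72 and 5.72 in Foxp3-KO, and 6.06 and 6.17 in WT Treg. In both Nr4a-TKO was lowest, Foxp3-KO lay just below WT Treg, and replicates lay close together. The differences were -1.2 ± 0.05, adjusted p = 0.00103 for S1pr1 and -0.80 ± 0.06, adjusted p = 0.00237 for Klf2. WT Tconv lay at 3.98 and 3.97 for S1pr1 and 5.88 and 5.82 for Klf2. Set against WT Treg alone, S1pr1 differed by -2.06 in Nr4a-TKO (adjusted p = 0.000235) and -0.33 in Foxp3-KO (adjusted p = 0.0446).

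Il6ra, the interleukin 6 receptor chain, was at 4.85 and 4.66 in Nr4a-TKO, 4.47 and 4.62 in Foxp3-KO, and 5.65 and 5.61 in WT Treg, and here both groups were about equally low (-0.98 ± 0.08, adjusted p = 0.00287). Klf3 (-1.04), Foxo1 (-0.73), the membrane genes Ms4a6b (-0.84) and Ms4a4b (-0.60) and Gimap3 (-0.34) also fell. The chemokine receptor Ccr7 was not among them: it was at 5.45 and 6.05 in Nr4a-TKO, 7.09 and 7.44 in Foxp3-KO, and 7.10 and 7.45 in WT Treg, which gave differences of -1.52 in Nr4a-TKO (adjusted p = 0.00841) and -0.01 in Foxp3-KO (adjusted p = 0.981). S1pr1, Klf2 and Il6ra kept their calls without each array in turn, and the list held 6 lower genes without WT Treg replicate 2 and 12 without Foxp3-KO replicate 2. In the list of immature thymocyte genes, 4 of 28 rose and 2 fell, beside 7.81% and 5.56% of all tested genes, with a median of 0.12. That median covered opposite signs, as it was -0.24 in Nr4a-TKO and 0.51 in Foxp3-KO. Cd24a, which is lost as thymocytes mature, was at 1.99 and 1.46 in Nr4a-TKO, 2.75 and 3.06 in Foxp3-KO, and 1.09 and 1.1 in WT Treg (1.22 ± 0.17, adjusted p = 0.00978). Cd8a, lost by CD4 single-positive cells, was at -0.87 and -0.48 in Nr4a-TKO, -0.76 and -0.02 in Foxp3-KO, and -1.85 and -2.63 in WT Treg (1.71 ± 0.31, adjusted p = 0.02). Plxnd1 rose too (0.99), and Pdcd4 fell (-0.37).

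Proliferation genes had the largest count of any of the 28 lists. Of 36 tested, 33 rose and 0 fell, where 7.81% of all tested genes were shared and higher, and the list median was 1.06, with 1.19 in Nr4a-TKO and 0.85 in Foxp3-KO. Rrm2, the small subunit of ribonucleotide reductase, was at 4.63 and 4.46 in Nr4a-TKO, 3.90 and 3.97 in Foxp3-KO, and 2.63 and 2.68 in WT Treg. Ccnb1, a cyclin of entry into mitosis, was at 2.05 and 2.0 in Nr4a-TKO, 1.65 and 1.65 in Foxp3-KO, and 0.51 and 0.45 in WT Treg. Cdk1, its partner kinase, was at 0.82 and 0.74 in Nr4a-TKO, 0.41 and 0.58 in Foxp3-KO, and -0.72 and -0.77 in WT Treg. All 4 precursor arrays stood well above WT Treg, and WT Tconv fell within their range, as it lay at 4.16 and 4.19 for Rrm2, 1.71 and 1.72 for Ccnb1 and 0.47 and 0.43 for Cdk1. The differences were 1.58 ± 0.07, adjusted p = 0.00103 for Rrm2, 1.35 ± 0.06, adjusted p = 0.00103 for Ccnb1 and 1.38 ± 0.07, adjusted p = 0.00134 for Cdk1, and 1.23 ± 0.07, adjusted p = 0.00134 for the related cyclin Ccnb2. The marker of cycling cells Mki67 was higher by 1.21 and the mitotic kinase Aurka by 1.26. Genes of DNA replication rose by 0.60 for the sliding clamp Pcna and 0.66 for the helicase subunit Mcm2.

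The 3 tested genes that were not shared were Tyms (0.23 ± 0.12, adjusted p = 0.22), Cdt1 (0.81 in Nr4a-TKO and 0.08 in Foxp3-KO) and Tk1 (0.99 in Nr4a-TKO and 0.00 in Foxp3-KO). The count was 25 without WT Treg replicate 2, 34 without Foxp3-KO replicate 2 and 32 without Nr4a-TKO replicate 1 and Foxp3-KO replicate 1. Rrm2, Ccnb1, Cdk1 and Ccnb2 kept their calls without each array in turn. With the precursor arrays as 1 group the adjusted p was 0.0984 for Rrm2 and 0.0736 for Ccnb1.

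**Figure D2:**
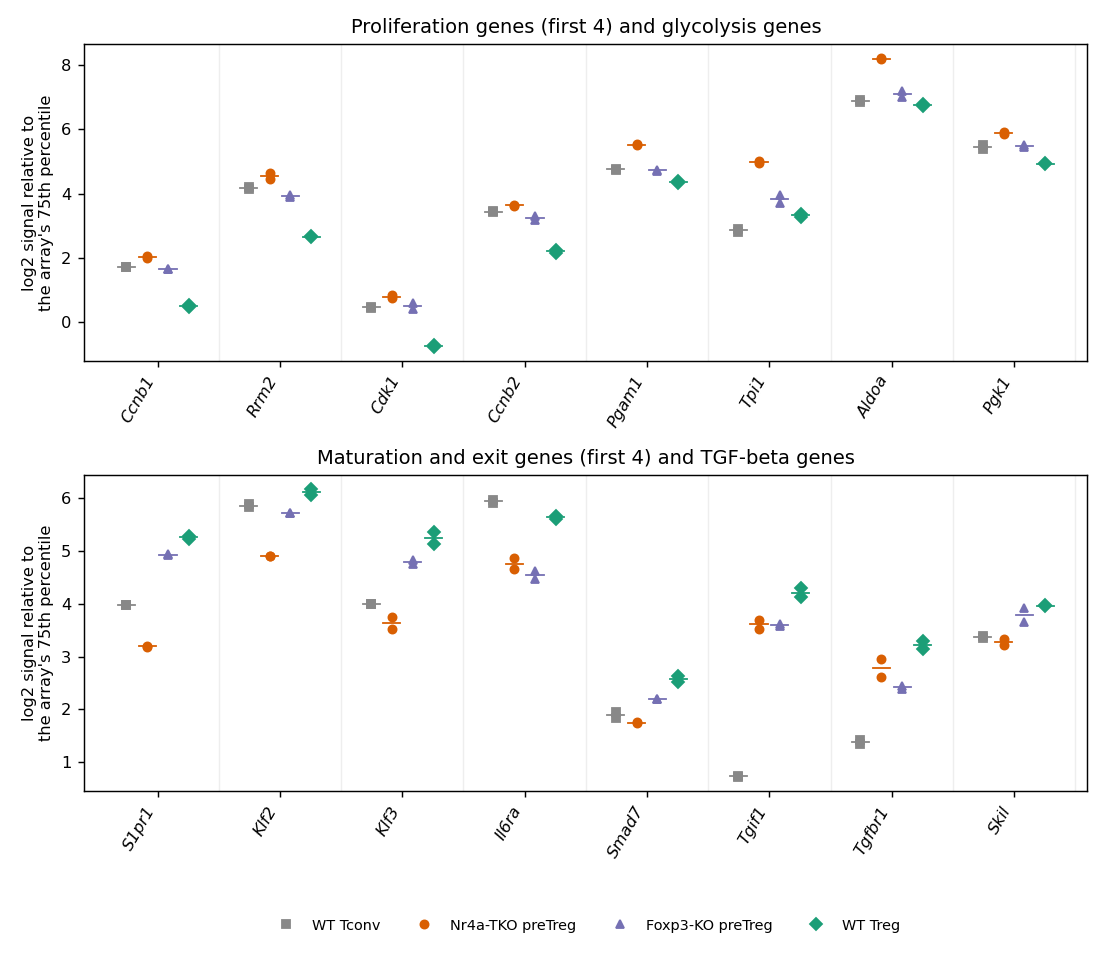
Log2 signal relative to the 75th percentile of each array (y axes) for the example genes of proliferation and glycolysis (upper panel) and of thymic exit and TGF-beta signalling (lower panel), with 1 point per array, 2 per group, and a line at the group mean. By the rule for shared genes the precursor points lie above WT Treg in the upper panel and below it in the lower panel. The differences are 1.58 for Rrm2, 0.78 for Pgam1, -1.2 for S1pr1 and -0.60 for Smad7.

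Glycolysis and hypoxia genes were often higher: 11 of 27 rose and 0 fell, beside 7.81% and 5.56% of all tested genes, with a median of 0.49. Tpi1, triose phosphate isomerase, was at 5.0 and 4.95 in Nr4a-TKO, 3.94 and 3.71 in Foxp3-KO, and 3.37 and 3.26 in WT Treg (1.08 ± 0.09, adjusted p = 0.00264). Aldoa, the aldolase of the pathway, was at 8.21 and 8.18 in Nr4a-TKO, 7.20 and 7.02 in Foxp3-KO, and 6.72 and 6.78 in WT Treg (0.90 ± 0.07, adjusted p = 0.00272). Pgam1 was at 5.53 and 5.51 in Nr4a-TKO, 4.71 and 4.74 in Foxp3-KO, and 4.31 and 4.38 in WT Treg (0.78 ± 0.06, adjusted p = 0.00199), and Pgk1 was higher as well (0.75 ± 0.06, adjusted p = 0.00286). In each of them Nr4a-TKO was highest and Foxp3-KO lay between it and WT Treg. Gapdh (0.53), Eno1 (0.32), Pkm (0.45), Ldha (0.29), Pfkp (0.63), the prolyl hydroxylase Egln3 (1.78) and Vegfa (1.64) rose too. The glucose transporter Slc2a1 (0.85 in Nr4a-TKO and -0.13 in Foxp3-KO) and hexokinase 2 (1.88 in Nr4a-TKO and 0.24 in Foxp3-KO) were not shared. The list held 6 higher genes without WT Treg replicate 1, and Tpi1, Aldoa, Pgam1 and Pgk1 kept their calls without each array in turn.

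Beside 7.81% and 5.56% of all tested genes, 6 of 23 endoplasmic reticulum stress and ATF4 response genes rose and 0 fell (median 0.34). They were the serine synthesis enzyme Psat1 (0.49 ± 0.06, adjusted p = 0.00743), the chaperones Sdf2l1 (1.1 ± 0.19, adjusted p = 0.0174), Pdia4 (0.60), Pdia6 (0.44) and Hspa5 (BiP, 0.43), and Vldlr, which was not well above background in WT Treg and was at least 2.16-fold higher in Nr4a-TKO and 1.57-fold in Foxp3-KO. For Vldlr 1 of 2 Foxp3-KO arrays was well above background, and it passed the brightness filter only through Nr4a-TKO, where it is high. The list held 0 higher genes without WT Treg replicate 2. Of 26 respiratory chain genes, 2 rose (Cox5a and Cycs) and 0 fell, with a median of 0.11. Of 29 genes of cholesterol and fatty acid synthesis, 1 rose (Lss) and 0 fell, with a median of 0.14. Among 26 interferon response genes, Gbp2 (0.74 ± 0.09, adjusted p = 0.00631) and Ifi44 (1.01 ± 0.15, adjusted p = 0.0118) rose and Irf9 fell (-0.40), with a median of -0.05. Of 19 pro-apoptotic genes 0 were shared in either direction by limma (5 higher and 2 lower at an unadjusted p under 0.05), and of 11 survival genes Pim2 rose and Mcl1 fell.

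**Figure D3:**
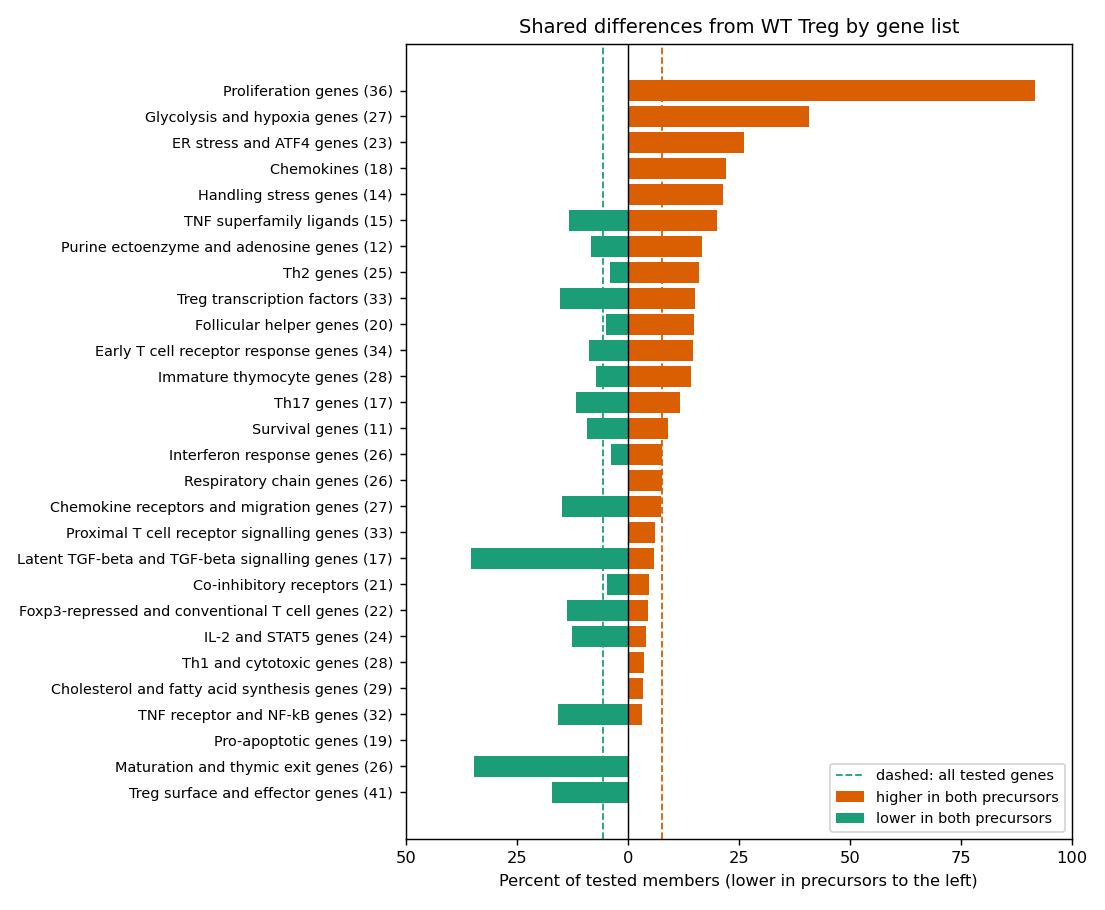
Share of the tested members of each of the 28 gene lists (number tested in brackets) that were shared and higher (right) or lower (left) in both precursor groups, in percent, with dashed lines at the shares over all tested genes, 7.81% and 5.56%. Proliferation, with 33 of 36, reaches farthest to the right, and the TGF-beta list, with 6 of 17, and the maturation and exit list, with 9 of 26, reach farthest to the left.

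Leaving out single arrays moved the small counts most. Without Foxp3-KO replicate 2 there were 9 higher Treg transcription factors, 6 higher Treg surface genes, 10 higher migration receptors, 8 lower Foxp3-repressed genes, 11 higher endoplasmic reticulum genes, 7 higher respiratory chain genes and 6 lower interferon genes. Of the same lists, the transcription factors held 2 higher genes and the Foxp3-repressed list 2 lower ones without WT Treg replicate 1, the migration receptors 1 higher gene without WT Treg replicate 2, and the respiratory chain list 0 higher genes without WT Tconv replicate 1.

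Early response genes of the T cell receptor split: 5 of 34 rose and 3 fell, beside 7.81% and 5.56% of all tested genes, with a median of 0.09. Dusp6, a phosphatase that dampens ERK, was at 4.08 and 4.07 in Nr4a-TKO, 4.06 and 4.17 in Foxp3-KO, and 3.28 and 3.36 in WT Treg (0.78 ± 0.06, adjusted p = 0.00264). Fos was at 1.01 and 1.23 in Nr4a-TKO, 0.48 and -0.05 in Foxp3-KO, and -0.81 and -0.36 in WT Treg (1.26 ± 0.20, adjusted p = 0.0147), and Fosb (0.70), Egr1 (0.44) and the EGR partner Nab1 (0.45) rose too. Fos, Fosb and Egr1 are also 3 of the 14 tested genes on the list of genes induced by handling of tissue, of which 3 rose and 0 fell with a median of 0.47, and the part of handling was not tested. Dusp4, another ERK phosphatase, moved the other way and was at 1.08 and 1.34 in Nr4a-TKO, 1.81 and 1.36 in Foxp3-KO, and 2.86 and 2.86 in WT Treg (-1.46 ± 0.17, adjusted p = 0.00578), with -2.70 and -2.37 in WT Tconv. Myc, a driver of growth, was at 1.25 and 1.39 in Nr4a-TKO, 1.93 and 1.85 in Foxp3-KO, and 2.14 and 2.31 in WT Treg (-0.62 ± 0.08, adjusted p = 0.0077), and Tagap fell as well (-0.50). Dusp6 and Dusp4 kept their calls without each array in turn, while Myc had an adjusted p of 0.0582 without WT Treg replicate 2. Of 33 genes of proximal receptor signalling, 2 rose, Cd3g (0.32) and the adaptor Lcp2 (0.42), and 0 fell, with a median of 0.05. Cd3g kept its call in 2 and Lcp2 in 3 of the 8 fits without 1 array, and without Foxp3-KO replicate 2 that list held 5 higher and 7 lower genes. The early list held 2 higher genes without WT Treg replicate 1 and without Foxp3-KO replicate 2 it held 9.

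Several cytokines of helper T cells were higher in both precursors but to very unequal extents. Il21, the cytokine of follicular helper cells, was at 3.99 and 3.44 in Nr4a-TKO, 1.80 and -0.19 in Foxp3-KO, and -3.21 and -5.94 in WT Treg, and only 1 WT Treg array was well above background (6.84 ± 0.89, adjusted p = 0.00829). Il4, the defining cytokine of Th2 cells, was at 4.73 and 3.93 in Nr4a-TKO, -0.24 and -1.21 in Foxp3-KO, and -2.42 and -1.87 in WT Treg (3.95 ± 0.36, adjusted p = 0.00341). Il13, its neighbour in the type 2 locus, was at 4.63 and 4.5 in Nr4a-TKO, -3.21 and -3.31 in Foxp3-KO, and -3.68 and -3.77 in WT Treg (4.38 ± 0.09, adjusted p = 0.000178). The Nr4a-TKO arrays stood far above all others in Il4 and Il13, while Foxp3-KO exceeded WT Treg by 1.42 for Il4 (adjusted p = 0.111) and 0.47 for Il13 (adjusted p = 0.0592). WT Tconv lay at 0.29 and 0.36 for Il21, 1.47 and 1.48 for Il4 and -0.74 and -0.53 for Il13, above Foxp3-KO in Il4 and Il13. Il17rb, a receptor for interleukin 25, differed evenly, at 0.79 and 1.05 in Nr4a-TKO, 0.50 and 0.91 in Foxp3-KO, and -0.39 and -0.57 in WT Treg (1.29 ± 0.15, adjusted p = 0.00547). Il21, Il4, Il13 and Il17rb kept their calls without each array in turn.

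By list, 4 of 25 Th2 genes rose and 1 fell (Ecm1), 3 of 20 follicular helper genes rose and 1 fell, 2 of 17 Th17 genes rose and 2 fell, and 1 of 28 Th1 and cytotoxic genes rose (Runx3). Over all tested genes 7.81% were shared and higher and 5.56% shared and lower. The medians of these 4 lists were 0.51, 0.27, 0.60 and 0.86. The counts of these lists rested on single arrays. Without Foxp3-KO replicate 2 they were 10 Th2, 6 follicular helper, 9 Th17 and 17 Th1 genes higher, and their lowest values with 1 array left out were 3, 2, 1 and 0, the follicular helper, Th17 and Th1 lows being those without WT Treg replicate 1. Csf2 (GM-CSF), not well above background in WT Treg, was at least 3.48-fold higher in Nr4a-TKO and 2.72-fold in Foxp3-KO (adjusted p = 0.0385 for both groups together, kept in 2 of the 8 fits without 1 array). In WT Tconv Csf2 lay at -0.77 and -0.83, above all 4 precursor arrays. Il17re was at least 15.7-fold higher in Nr4a-TKO and 6.57-fold in Foxp3-KO (adjusted p = 0.00921). Cd40lg, the ligand with which helper cells instruct B cells, was at least 1.66-fold higher in Nr4a-TKO and 2.08-fold in Foxp3-KO (adjusted p = 0.00358). Of the Foxp3-KO arrays of Cd40lg, 1 of 2 was well above background, and WT Tconv lay above all 4 precursor arrays, at -2.05 and -2.24. Tnfsf4, the ligand of OX40, was at least 1.82-fold and 2.53-fold higher (adjusted p = 0.0185). Tnfsf4 passed the brightness filter only through the precursor groups, where it is high, so its adjusted p is a description. Tnfsf11, the gene of RANKL, which supports medullary thymic epithelium, was at 2.11 and 2.0 in Nr4a-TKO, 1.40 and 1.14 in Foxp3-KO, and 0.67 and 0.48 in WT Treg (1.09 ± 0.10, adjusted p = 0.00382). Of 15 TNF superfamily ligands, 3 rose, Cd40lg, Tnfsf4 and Tnfsf11, and 2 fell, Ltb (-0.37 ± 0.08, adjusted p = 0.0329) and Tnfsf15 (-0.74 ± 0.16, adjusted p = 0.0324). The median of these ligands was 0.56, with 1.48 in Nr4a-TKO and -0.37 in Foxp3-KO. Ltb kept its call in 2 and Tnfsf15 in 3 of the 8 fits without 1 array, and 0 ligands were lower with no filter on dim probes or with only the 3 groups fitted.

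Among receptors of migration, 2 of 27 rose and 4 fell, with a median of 0.26. By group that median was 0.77 in Nr4a-TKO and -0.30 in Foxp3-KO. The counts of this and the next lists stand beside 7.81% higher and 5.56% lower over all tested genes. Ccr10, a receptor for skin and mucosal chemokines, was at -2.17 and -2.33 in Nr4a-TKO, -1.07 and -0.87 in Foxp3-KO, and -3.52 and -3.35 in WT Treg (1.83 ± 0.10, adjusted p = 0.00134), below the WT Tconv level of 2.02 and 2.06, and Gpr183, which reads oxysterols, was higher as well (0.84 ± 0.12, adjusted p = 0.0112). S1pr4 (-0.47) fell, as did S1pr1 and Ccr6. Of 22 genes repressed by Foxp3 or typical of conventional T cells, 3 fell, Dapl1 (-1.74 ± 0.25, adjusted p = 0.0105) and Klf2 among them, and 1 rose, the phosphodiesterase Pde3b (1.08 ± 0.18, adjusted p = 0.018). The list median was -0.28, with -0.80 in Nr4a-TKO and 0.16 in Foxp3-KO. Of 21 co-inhibitory receptors, with a median of 0.14, Cd96 fell, at 2.49 and 2.76 in Nr4a-TKO, 4.45 and 4.60 in Foxp3-KO, and 4.88 and 4.84 in WT Treg (-1.28 ± 0.10, adjusted p = 0.00218), and Lair1 rose (1.03). Of 12 purine and adenosine genes, also with a median of 0.14, the nucleoside transporter Slc29a1 (1.19 ± 0.13, adjusted p = 0.00528) and Pde3b rose and P2ry10 fell (-0.73). By group the median of the co-inhibitory receptors was 0.91 in Nr4a-TKO and -0.29 in Foxp3-KO. That of the purine genes was 0.57 and -0.22.

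The leading higher genes included several that are best known from other cells. Slpi, a secreted inhibitor of leukocyte proteases, was at 4.88 and 0.92 in Nr4a-TKO, 4.20 and 1.91 in Foxp3-KO, and -2.86 and -3.42 in WT Treg (6.12 ± 1.2, adjusted p = 0.0253). Mzb1, a chaperone of antibody-secreting cells, was at 2.48 and 0.05 in Nr4a-TKO, 1.72 and -0.62 in Foxp3-KO, and -2.69 and -3.25 in WT Treg (3.88 ± 0.89, adjusted p = 0.0378). Blnk, the B cell linker, was at 4.14 and 1.87 in Nr4a-TKO, 2.66 and 1.30 in Foxp3-KO, and -0.03 and -1.33 in WT Treg (3.17 ± 0.77, adjusted p = 0.0441). In each of these replicate 1 lay above replicate 2 by over 1 log2 unit in both precursor groups. Without WT Treg replicate 2 the adjusted p was 0.14 for Slpi, 0.19 for Mzb1 and 0.224 for Blnk, and they kept their calls in 4, 2 and 2 of the 8 fits without 1 array. The B cell genes Spib (2.86) and Pou2af1 (2.79) and the adaptor Scimp (2.45) were also among the 15. Spib lost the call in most fits without 1 array, with a difference between 2.35 and 3.36.

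**Figure D4:**
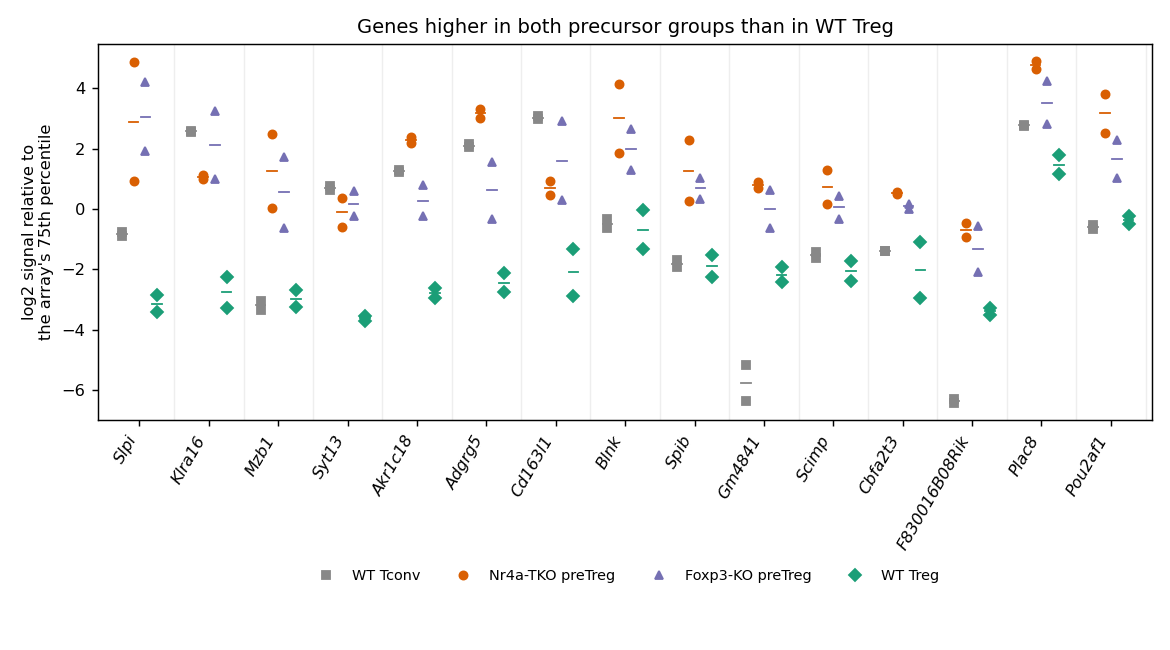
Log2 signal relative to the 75th percentile of each array (y axis) for the 15 leading higher genes (x axis), with 1 point per array, 2 per group, and a short line at the group mean. As the rule for shared genes requires, all 4 precursor points lie above both WT Treg points for each of the 15 genes. In Slpi, Mzb1 and Blnk the 2 arrays of a precursor group lie far apart.

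The other leading higher genes come from varied families. Akr1c18, an enzyme that inactivates progesterone, was at 2.38 and 2.18 in Nr4a-TKO, -0.24 and 0.80 in Foxp3-KO, and -2.95 and -2.62 in WT Treg (4.06 ± 0.29, adjusted p = 0.00196). Syt13, of the synaptotagmin family, was at -0.59 and 0.37 in Nr4a-TKO, -0.25 and 0.61 in Foxp3-KO, and -3.54 and -3.72 in WT Treg (3.66 ± 0.34, adjusted p = 0.0036), and WT Tconv at 0.77 and 0.64. Adgrg5, an adhesion receptor coupled to G proteins, was at 3.31 and 3.03 in Nr4a-TKO, 1.57 and -0.34 in Foxp3-KO, and -2.12 and -2.76 in WT Treg (4.33 ± 0.53, adjusted p = 0.00692). Akr1c18 and Syt13 kept their calls without each array in turn, and Adgrg5 had an adjusted p of 0.058 without WT Treg replicate 2. Plac8 (2.68), the co-repressor Cbfa2t3 (2.32), Gm4841 (2.57), F830016B08Rik (2.37) and Cd163l1 (3.24), a scavenger receptor of gamma delta T cells, completed the set with Klra16. Cbfa2t3, F830016B08Rik and Cd163l1 each lost the call in most fits without 1 array. Klra16, an NK receptor gene of the Ly49 family, was at 1.14 and 0.99 in Nr4a-TKO, 3.24 and 0.99 in Foxp3-KO, and -2.26 and -3.27 in WT Treg (4.36 ± 0.64, adjusted p = 0.0118), with 2.60 and 2.55 in WT Tconv.

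For 115 of the higher genes WT Treg was not well above background, and the largest bounds belonged to secreted products of myeloid cells and to Ly49 receptors. Ccl8, a chemokine, exceeded WT Treg at least 1322-fold in Nr4a-TKO (adjusted p = 0.00288) and 3.75-fold in Foxp3-KO (adjusted p = 0.235), where 1 of 2 arrays was well above background. Its log2 signals were 7.11 and 5.28 in Nr4a-TKO and -0.44 and -4.10 in Foxp3-KO, and without WT Treg replicate 2 the adjusted p for both groups together rose from 0.0132 to 0.0889. The chemokine Ccl24 was at least 58.5-fold higher in Nr4a-TKO and 6.15-fold in Foxp3-KO (adjusted p = 0.00684 for both together). Retnla, a product of alternatively activated macrophages, was at least 63.6-fold higher in Nr4a-TKO (adjusted p = 0.00517) and 3.14-fold in Foxp3-KO (adjusted p = 0.121), again with 1 of 2 Foxp3-KO arrays above background. The Foxp3-KO differences of Ccl8 and Retnla therefore did not pass the test on their own. Both genes passed the brightness filter only through Nr4a-TKO, where they are high, so their adjusted p is a description. Ccl24, and Ccl9 below, passed it only through the precursor groups, where they are high, so their adjusted p is a description too. Of 18 tested chemokines, with a median of 2.06, 4 rose and 0 fell, beside 7.81% and 5.56% of all tested genes. Ccl9 (adjusted p = 0.0311) and Cxcl16 (1.24 ± 0.28, adjusted p = 0.0368) were the others. Ccl9 was well above background on 1 of 2 WT Treg arrays, and Ccl9 and Cxcl16 each kept the call in 2 of the 8 fits without 1 array. The list held 0 higher genes without WT Treg replicate 2 and 15 without Foxp3-KO replicate 2. The bounds of the Ly49 genes were larger in Foxp3-KO. Klra7 was at least 7.21-fold higher in Nr4a-TKO and 31.1-fold in Foxp3-KO (adjusted p = 0.0217 for both together), and Klra4 at least 10.3-fold and 19.3-fold (adjusted p = 0.0189). Klra9 was at least 2.56-fold and 17.5-fold higher (adjusted p = 0.0243). Ly49 genes are close copies of each other, so a probe may read several of them.

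Markers of other cell types were summed as linear signals in multiples of the 75th percentile. Counts of shared markers stand beside 7.81% higher and 5.56% lower over all tested genes. The 11 tested B cell markers summed to 78.9 and 20.0 in Nr4a-TKO, 24.5 and 6.78 in Foxp3-KO, and 6.96 and 5.02 in WT Treg, and 3 of them (Blnk, Spib and Ebf1) were shared and higher, with 0 without WT Tconv replicate 1 and 7 without Foxp3-KO replicate 2. Of the defining ones, Pax5 was not bright enough to test. In the summed B cell signal Foxp3-KO replicate 2 lay just below the higher WT Treg array, and the other precursor arrays lay above both. The 14 tested macrophage and monocyte markers summed to 116 and 71.0, 87.5 and 43.6, and 57.9 and 45.7 in the same order, and 0 were shared by limma (3 higher and 1 lower at an unadjusted p under 0.05). The 12 dendritic cell markers summed to 709 and 580, 586 and 500, and 475 and 415, and 3 were shared (Batf3, Cd74 and H2-Eb1), with 0 without WT Tconv replicate 1 and 7 without WT Treg replicate 1. The 6 plasma cell markers summed to 93.3 and 61.4, 58.7 and 32.3, and 32.5 and 36.1, and Mzb1 was shared. On Foxp3-KO replicate 2 the macrophage and plasma cell sums lay below both WT Treg arrays. Of the shared markers, Ebf1 passed the brightness filter only through Nr4a-TKO and Batf3 only through the precursor groups, where they are high.

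The 14 tested markers of NK and innate-like T cells summed to 31.9 and 23.7 in Nr4a-TKO, 79.4 and 19.9 in Foxp3-KO, 13.2 and 8.42 in WT Treg, and 26.9 and 26.6 in WT Tconv. Of them 4 were shared and higher, Zbtb16, Klrb1c (NK1.1), Klra7 and Klra9, with 1 without WT Tconv replicate 1 and 11 without Foxp3-KO replicate 2. Klrb1c, Klra7 and Klra9 each kept the call in 2 of the 8 fits without 1 array, and Foxp3-KO replicate 1 was highest in Klrb1c, Klra7 and Klra9 at 1.69, 2.41 and 1.2. The 7 tested CD4 T cell markers summed to between 793 and 1034 on all 8 arrays. The 5 Treg markers summed to 227 and 176 in Nr4a-TKO, 146 and 128 in Foxp3-KO, 273 and 258 in WT Treg, and 30.5 and 31.9 in WT Tconv. Granulocyte, stroma and epithelium markers had 0 shared genes by limma and 0 at an unadjusted p under 0.05, red cell markers 1 of 3 (Hbb-bt), gamma delta T cell markers 1 of 2 (Cd163l1) and markers of CD8 T cells and double-positive thymocytes 1 of 6 (Cd8a). The median of these last markers was -0.61 in Nr4a-TKO and 1.90 in Foxp3-KO. Hbb-bt passed the brightness filter only through Nr4a-TKO, where it is high. Without Nr4a-TKO replicate 1 and Foxp3-KO replicate 1, the 2 arrays with the highest B cell signal, 976 genes were higher and 736 lower, and 3 B cell, 2 plasma cell, 6 NK and 0 dendritic cell markers were shared. The part of other cells in the differences of Slpi, Mzb1, Blnk, Spib, Pou2af1, Retnla, the chemokines, the Ly49 genes and the cytokines was not tested.

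Both precursor groups were set against the same WT Treg arrays, and they did not stand at equal distance from WT Treg. Of the higher shared genes, 461 (43.7%) differed between Nr4a-TKO and Foxp3-KO at an adjusted p under 0.05, and of the lower ones 389 (51.9%), beside 33.7% of all tested genes. Nr4a-TKO was the farther from WT Treg in 414 of the 461 and 316 of the 389, and Foxp3-KO in 47 and 73. Among all tested genes 4549 differed, with Nr4a-TKO the farther in 3544 and Foxp3-KO in 1005, so this lean was not particular to shared genes. Genes in which Foxp3-KO was the farther included Foxp3 itself (difference between groups 1.67 ± 0.24, adjusted p = 0.00675), Tnfrsf4 (0.75 ± 0.12, adjusted p = 0.0093) and Plagl1 (1.38 ± 0.30, adjusted p = 0.022). On the higher side they included Zbtb16 (-1.69 ± 0.23, adjusted p = 0.00631), Ccr10 (-1.28 ± 0.11, adjusted p = 0.00201) and Cd24a (-1.18 ± 0.19, adjusted p = 0.00987). Genes in which Nr4a-TKO was the farther included S1pr1 (-1.73 ± 0.06, adjusted p = 0.000259), Cd96 (-1.90 ± 0.11, adjusted p = 0.000829) and Malt1 (1.53 ± 0.11, adjusted p = 0.00113). For Gpr83 the difference between the groups was 0.10 ± 0.23, adjusted p = 0.748, for Syt13 -0.29 ± 0.39, adjusted p = 0.598 and for Dusp6 -0.04 ± 0.07, adjusted p = 0.705, which did not pass the test and does not show that the groups were alike. The count of genes that differed, 850 in all, was 359 without WT Treg replicate 2, 1286 without Foxp3-KO replicate 2 and 537 with array weights.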

How the data were processed

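Per the labels' protocols, 10 ng of RNA from each sorted population was labelled with Cy3 and hybridised to 1-colour Agilent arrays. Each array file holds the processed intensity of every spot, which per the file headers is background-subtracted and detrended within the array, made with Agilent Feature Extraction 10.7.1.1 (per the submitters' processing notes). The deposited value matrix holds the same intensity scaled by the authors to the 75th percentile, on a linear scale.

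From the array files, control spots and outlier flags were left out, spots of one probe were averaged, log2 was taken and the 75th percentile of each array was subtracted. Of 55681 probes, 28026 had a symbol through RefSeq accessions, for 21154 genes; 1595 of 29796 RefSeq probes were unmatched. The brightest probe stood for each gene, and a gene was tested where that probe was well above background on both arrays of at least 1 group. limma 3.58.1 in R 4.3.3 fitted 4 groups of 2 arrays (4 residual degrees of freedom, 1.589 prior degrees of freedom) with Benjamini-Hochberg adjustment. All fold changes and p-values are from this fit. It was also run on simulated data in which both precursor groups were shifted equally. Such data cannot show how the shared call behaves where only Nr4a-TKO differs. The number of arrays limits the precision, and p-values measure the spread between 2 arrays a group.

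Named genes were the targeted and gate genes, the 15 highest and 15 lowest shared genes by the smaller group difference, the 5 largest bounds a side, up to 4 members a list and direction, and list members needed to describe their list. A further few genes, among them Il2ra and Ctla4 beside their lists, are named as list members. The groups compared, the gene lists, markers and motifs were chosen with earlier results of these data known. The alternatives were other scalings, background corrections, filters, probe rules, fits and arrays left out; leaving out Nr4a-TKO replicate 1 and Foxp3-KO replicate 1 together was added after seeing the data. Promoter windows come from RefSeq (GRCm38.p6); figures were drawn with matplotlib 3.10.9. A few genes that the naming rule chose are not reported here.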

Additional observations from a re-analysis of the deposited data

Results flagged for a closer look

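Among the named genes, these differed between the precursor groups by at least 4-fold, tested as Nr4a-TKO minus Foxp3-KO with limma and Benjamini-Hochberg adjustment. Each difference below is on the log2 scale ± SE. Among all tested genes 33.7% differed at an adjusted p under 0.05, so such a difference was common in these arrays.

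Most were higher in Nr4a-TKO. Il13, a type 2 cytokine, differed by 7.82 ± 0.10 (adjusted p = 1.56e-05), with 8.29 in Nr4a-TKO and 0.47 in Foxp3-KO against WT Treg. Il4, a type 2 cytokine, differed by 5.05 ± 0.42 (adjusted p = 0.00175), with 6.47 in Nr4a-TKO and 1.42 in Foxp3-KO against WT Treg. Ccl8, a chemokine, differed by 8.46 ± 1.24 (adjusted p = 0.00756), with 11.24 in Nr4a-TKO and 2.78 in Foxp3-KO against WT Treg. Ccl24, a chemokine, differed by 3.25 ± 0.87 (adjusted p = 0.0375), with 7.78 in Nr4a-TKO and 4.53 in Foxp3-KO against WT Treg. Retnla, a macrophage product, differed by 4.34 ± 1.04 (adjusted p = 0.0277), with 7.71 in Nr4a-TKO and 3.37 in Foxp3-KO against WT Treg. Id2, the E protein inhibitor, differed by 2.45 ± 0.48 (adjusted p = 0.0164), with 3.55 in Nr4a-TKO and 1.1 in Foxp3-KO against WT Treg. Adgrg5, an adhesion receptor, differed by 2.55 ± 0.61 (adjusted p = 0.0281), with 5.61 in Nr4a-TKO and 3.06 in Foxp3-KO against WT Treg. Nr4a2, the targeted nuclear receptor gene, differed by 2.24 ± 0.20 (adjusted p = 0.00226), with 2.10 in Nr4a-TKO and -0.14 in Foxp3-KO against WT Treg. Ccl8, Ccl24 and Retnla were not well above background in WT Treg, so their differences from WT Treg are fitted values and not bounds.

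The others were higher in Foxp3-KO. Drc1, a gene of the dynein regulatory complex, differed by -2.30 ± 0.36 (adjusted p = 0.00879), with -3.81 in Nr4a-TKO and -1.52 in Foxp3-KO against WT Treg. Ikzf4, the gene of Eos, differed by -2.29 ± 0.17 (adjusted p = 0.00142), with -2.97 in Nr4a-TKO and -0.68 in Foxp3-KO against WT Treg. Arpp21, an immature thymocyte gene, differed by -2.42 ± 0.57 (adjusted p = 0.027), with -3.69 in Nr4a-TKO and -1.27 in Foxp3-KO against WT Treg. Klra9, a Ly49 receptor, differed by -2.77 ± 0.76 (adjusted p = 0.0406), with 2.03 in Nr4a-TKO and 4.80 in Foxp3-KO against WT Treg. Arpp21 was not well above background in Nr4a-TKO and Klra9 not in WT Treg. Groups of 2 arrays were too small for a search for single outlying samples.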

How the results depend on the processing

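The counts below give shared higher genes, shared lower genes, and shared genes that differed between the precursor groups, against 1054, 750 and 850 as reported. Leaving out 1 array at a time gave 349 to 1846 higher, 223 to 1464 lower and 359 to 1286 differing. Without a filter on dim probes 677 and 474 were counted. With every probe in place of the brightest per gene the counts were 1590, 1495 and 1559 probes. Fitting only the 3 groups compared gave 609, 401 and 496, and array weights lowered the differing count to 537. Treating the 4 precursor arrays as 1 group left 3 and 2, with an adjusted p of 0.272 for Foxp3, 0.481 for S1pr1, 0.063 for Dgat2 and 0.051 for Apol9a. A minimum of 2-fold left 407 and 192. Under the other settings (quantile and median scaling, normexp, the authors' matrix, stricter detection, mean of probes, an intensity trend, pairs of precursor arrays left out) each count stayed within 1.5 times. The causes of these changes were not tested, except that fewer arrays and fewer groups leave fewer degrees of freedom.

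Nr4a1 changed sign in the fit of Foxp3-KO and WT Treg alone (-0.060) and, leaving out 1 array at a time, ran from -0.001115 to 0.34. Nr4a2 changed sign in the fit of those 2 groups (-0.14). Of 129 named genes in that fit, which has 2 residual degrees of freedom, 121 no longer passed the test. The labels give the groups the same replicate numbers. Arrays with the same number deviated together with r = 0.26 between Nr4a-TKO and Foxp3-KO, 0.15 between Nr4a-TKO and WT Treg and 0.20 between Foxp3-KO and WT Treg, but not with WT Tconv, where r lay between -0.03 and -0.01. With 2 numbers the arrays share only a number, and the replicate block gave 983, 619 and 744. Under the block 128 of 135 named genes kept their side of the threshold, and Ltb, Cd3g, Lcp2, Mcl1, Lss, Cycs and Hbb-bt no longer passed, with an adjusted p between 0.0509 (Hbb-bt) and 0.0665 (Lss). Dim probes limit the data: 115 of the higher genes have only a bound in WT Treg.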
